A study of Xenopus laevis with 17 samples.

Results

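The genes described here are the frog gene models whose symbols begin with LRRC (leucine-rich repeat containing) or TTC (tetratricopeptide repeat) and a number. Of the 24383 models in the files, 122 models of 83 symbols met this rule, 77 of them LRRC models and 45 TTC models. LRRC6, TTC8, TTC21B, TTC25 and TTC26 were left out because they belong to other gene groups. These names record a repeat motif and not a shared function, so the models were sorted into lists by an assigned role. The lists held 16 models of ciliary genes, 35 models of membrane or secreted proteins, 51 models with other cellular roles and 20 models to which no role was given.

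Leucine-rich repeats and tetratricopeptide repeats are short protein modules that stack into curved surfaces, and both are used to hold other proteins in place. In motile cilia, the beating hairs of multiciliated cells, such proteins build the central apparatus, the radial spokes and the regulatory links between the outer microtubule pairs, and they also take part in loading dynein motors and in intraflagellar transport, the traffic of cargo along the cilium. Multicilin is a coiled-coil protein that turns ectoderm cells into multiciliated cells. Foxj1 and Foxn4 are forkhead transcription factors, and Foxj1 is known as a regulator of motile cilia genes. Ciliary roles below were established largely in mammals and in the green alga Chlamydomonas, and are given as background.

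RNA was sequenced from Xenopus laevis animal caps, the ectoderm cut from stage 10 embryos, with 20 caps per condition. Caps in all 4 RNA groups had received mRNA for Multicilin in a form that hormone switches on, and dexamethasone (20 µM) was added at mid-stage 11. RNA was taken 9 h later at 22 °C, about stage 18. The control group had Multicilin only (n = 3) and was re-used from an earlier study. The Foxj1 CRISPR group also received Cas9 protein and a foxj1 guide RNA (n = 2), the Foxn4 CRISPR group Cas9 protein and a foxn4 guide RNA (n = 2), and the Foxn4 morpholino group an antisense oligonucleotide against foxn4 (n = 2). Further caps served for ChIP-seq with a GFP-tagged, hormone-inducible Foxn4, given alone (1 library) or with Multicilin (1 library). All control libraries came from the earlier study, so study and treatment cannot be told apart in comparisons with the control. Since no label ties replicates to separate clutches, the spread that the p-values measure may be technical.

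Library totals ran from 8265823 to 22041340 estimated counts, and 62.7% to 69.1% of these came from uniquely matching reads. RNA of the targeted genes was not below the control range: the 3 FOXJ1 models summed to 1107 to 1620 counts per 1000000 library counts (CPM) in the control and to 2282 to 2417 CPM in the Foxj1 CRISPR group, and the 2 FOXN4 models summed to 121 to 645 CPM in the control, 571 to 609 CPM after Foxn4 CRISPR and 1079 to 1118 CPM after the morpholino. An RNA level reads neither an edit nor a block of translation, so it does not check these labels. Levels below are CPM over library totals, whereas fold changes are log2 values from edgeR with TMM scaling. Scaling by library totals in place of TMM raised the median of all tested models by 0.41, 0.26 and 0.44 for Foxj1 CRISPR, Foxn4 CRISPR and the morpholino against the control, so ratios of the printed CPM lie above the fitted changes by about that much. Control replicate 2 was the lowest control library for 14 of 15 tested ciliary models, with a median ratio of 0.611 to the other controls. It was also the lowest control for both FOXN4 models, at 48.3 and 72.3 CPM.

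Of the 122 models, 100 had enough counts to be tested, and 8 had no count in any library. Models were called at an adjusted p under 0.05 in edgeR's quasi-likelihood test, with Benjamini-Hochberg adjustment over all 19058 tested models. In the Foxj1 CRISPR group 41 members fell and 13 rose, where 20.7% of all tested models fell and 19.8% rose, and the median member change was −0.63 against 0.01 for all models. The split differed by name, with 20 lower and 2 higher of 44 tested TTC models and 21 lower and 11 higher of 56 tested LRRC models. Without Foxj1 CRISPR replicate 1, which left 1 sample in that group, the counts in both directions were smaller. With library-total scaling they were 35 lower and 18 higher, where 13.9% of all tested models then fell and 31% rose.

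In the Foxn4 CRISPR group 13 members fell and 10 rose, where 10.7% of all tested models fell and 12.6% rose, with a median member change of −0.41 against −0.03. These counts rested on single libraries. Fewer members were called without either Foxn4 CRISPR library, which left 1 sample in that group. Without control replicate 2, 29 members fell and 11 rose, beside 2371 and 2677 of all 18914 tested models. Library-total scaling gave 7 lower and 12 higher, where 6.63% of all tested models then fell and 18.1% rose. After the Foxn4 morpholino 40 members fell and 17 rose, where 21.1% of all tested models fell and 23.9% rose, with medians of −0.73 and 0.08. Fewer members were lower without morpholino replicate 1, which left 1 sample in that group. Without control replicate 3, 26 were lower, beside 3614 of all 18957 tested models. Library-total scaling gave 20 lower and 27 higher, where 14% of all tested models then fell and 35.9% rose. All 3 comparisons share the control libraries, so their counts are not independent of each other.

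**Figure D1:**
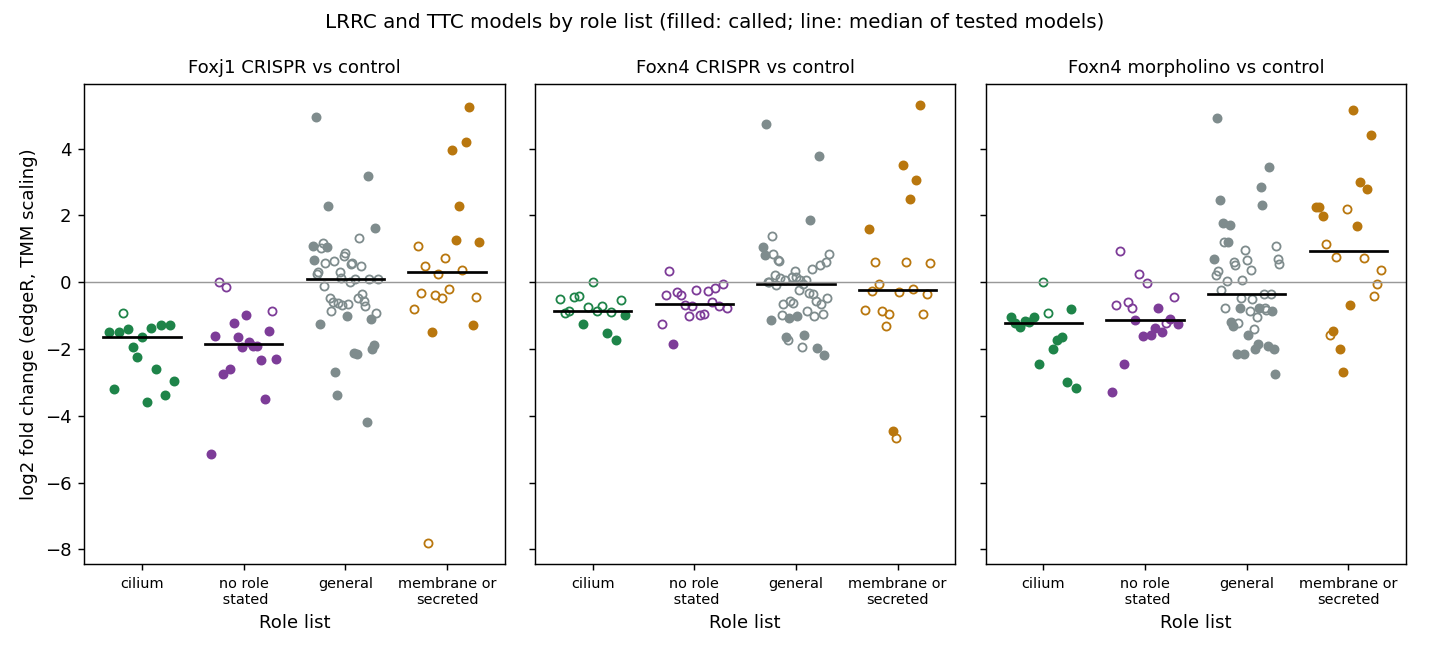
Each point is a tested LRRC or TTC model, placed by its role list (x axis) and its log2 fold change against the Multicilin control (y axis) in the Foxj1 CRISPR, Foxn4 CRISPR and Foxn4 morpholino groups, with called models filled and a line at each list's median. In the Foxj1 CRISPR panel the ciliary models and those with no role stated sit almost wholly below 0, with medians of −1.64 and −1.85, while the other lists spread to both sides.

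The direction went with the role list. The lists were chosen with earlier results of these data known, so this match is not independent of the data. Among the 15 tested ciliary models, 14 fell in the Foxj1 CRISPR group (median −1.64), 4 fell in the Foxn4 CRISPR group (median −0.85) and 13 fell after the morpholino (median −1.21). Among the 18 tested models with no role stated, 15 fell in the Foxj1 CRISPR group (median −1.85), 1 fell in the Foxn4 CRISPR group (median −0.64) and 10 fell after the morpholino (median −1.12). The 47 tested models with other cellular roles split 10 lower to 7 higher, 7 to 5 and 13 to 9 in the same order. Of all tested models 20.7% fell and 19.8% rose, 10.7% and 12.6%, and 21.1% and 23.9%, in that order. Under library-total scaling the models with other cellular roles split 7 to 11, 3 to 7 and 8 to 17. That scaling moved all models upward, to 2642 lower and 5903 higher, 1264 and 3456, and 2667 and 6848 of 19058. The 20 tested membrane or secreted models split 2 lower to 6 higher, 1 to 5 and 4 to 8.

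Models of motile cilia genes outside the members gave the same 3 measures for comparison. They form a list of dynein, radial spoke, central pair, tektin and assembly genes, with the left-out LRRC6 and TTC25 among them. Of 57 such models, 54 fell in the Foxj1 CRISPR group (median −2.19), 16 fell in the Foxn4 CRISPR group (median −0.79) and 44 fell after the morpholino (median −1.23). Summed over the list, they stood at 24668 to 34277 CPM in the control, 7535 to 9443 CPM after Foxj1 CRISPR, 20742 to 20755 CPM after Foxn4 CRISPR and 15323 to 17080 CPM after the morpholino. In bulk caps, fewer multiciliated cells and less RNA per cell cannot be told apart. Regulators of the multiciliated fate, of which 10 of 11 symbols were found, include the targeted FOXJ1, at 1107 to 1620 CPM in the control and 2282 to 2417 CPM after Foxj1 CRISPR. With FOXJ1 included, they summed to 2399 to 5333 CPM in the control, lowest in replicate 2. In the same 3 perturbed groups they summed to 7749 to 7798, 6662 to 6740 and 8134 to 8651 CPM. There 4, 0 and 2 of their 19 tested models fell and 2, 1 and 3 rose.

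Markers of other cell types also moved between groups. Control replicate 2 set the top of the control range for secretory markers (14190 CPM, against 6882 and 4509 CPM in replicates 1 and 3). It did so too for the ionocyte, epidermal, and mesoderm and endoderm markers, and it set the bottom for neural markers. Mucus and small secretory cell markers (8 of 10 found, SLC6A4 and TPH1 below 1 CPM in every library) summed to 4509 to 14190 CPM in the control and to 3210 to 3625, 3165 to 3271 and 1967 to 2546 CPM in the Foxj1 CRISPR, Foxn4 CRISPR and morpholino groups, where 5, 3 and 7 of their 11 tested models fell and 0, 1 and 2 rose. Neural markers (8 of 9 found, NEUROG2 below 1 CPM everywhere) summed to 5113 to 9826, 2834 to 4423, 5394 to 6925 and 3731 to 6141 CPM from the control through the same 3 groups, although 15, 13 and 17 of their 23 tested models rose. Ionocyte markers (8 of 10 found) summed to 431 to 1042, 641 to 695, 556 to 813 and 468 to 593 CPM in the same order. Of 20 tested ionocyte models 15 fell and 4 rose with the morpholino (median −2.28), while 5 fell and 4 rose after Foxj1 CRISPR and 1 fell and 5 rose after Foxn4 CRISPR. With the morpholino set against Foxn4 CRISPR directly, 8 ionocyte models were lower and 2 higher (median −1.99). Epidermal markers (11 of 13 found) summed to 9068 to 11514, 11975 to 12560, 11769 to 12172 and 11168 to 12614 CPM, and 4, 2 and 9 of 26 tested models fell while 3, 1 and 3 rose. Mesoderm and endoderm markers (11 of 13 found, CHRD below 1 CPM everywhere) were scarce but summed to 10.7 to 41.7 CPM in the control, 79.3 to 100.4 CPM after Foxj1 CRISPR, 58.1 to 58.5 CPM after Foxn4 CRISPR and 33.7 to 36.3 CPM after the morpholino. Of their 16 tested models 8, 7 and 5 rose and 2, 2 and 3 fell (medians 2.40, 1.98 and −0.12). Their part in the changes of the LRRC and TTC genes was not tested.

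Genes that prepare dynein motors for the cilium came first. TTC12, a cytoplasmic factor needed in humans to assemble ciliary dyneins (scaffold 66475, 3672719 to 3736805), stood at 285, 245 and 372 CPM in the controls, at 14.1 and 53.6 CPM in the Foxj1 CRISPR libraries, at 156 and 250 CPM after Foxn4 CRISPR, and at 223 and 217 CPM after the morpholino. The Foxj1 CRISPR libraries lay far below all others, and Foxn4 CRISPR overlapped the control. TTC12 fell by 3.58 ± 0.55 (log2, SE) in the Foxj1 CRISPR group (adjusted p = 0.000971), and changes of −0.85 ± 0.48 and −0.91 ± 0.48 in the Foxn4 CRISPR and morpholino groups were not called (adjusted p = 0.216 and 0.145).

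LRRC56, linked in humans and trypanosomes to the transport or assembly of outer dynein arms (scaffold 109526, 339867 to 371079), had 206, 134 and 232 CPM in the controls, 72.5 and 93.7 CPM after Foxj1 CRISPR, 225 and 243 CPM after Foxn4 CRISPR and 267 and 266 CPM after the morpholino. It fell by 1.64 ± 0.31 in the Foxj1 CRISPR group (adjusted p = 0.00278). Neither Foxn4 perturbation gave a call, with changes of 0.01 ± 0.29 and 0.02 ± 0.29 (adjusted p = 0.989 and 0.959), and the sign of these small values depended on the scaling. The Foxj1 CRISPR calls of TTC12 and LRRC56 were kept under all 18 alternative settings that gave a value.

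Structural parts of the axoneme, the microtubule core of the cilium, came next. TTC40, also called CFAP46, is a protein of the central apparatus (scaffold 7555, 816523 to 951118). Its level was 271, 334 and 323 CPM in the controls, 41.5 and 65.8 CPM after Foxj1 CRISPR, 178 and 198 CPM after Foxn4 CRISPR and 39.5 and 52.6 CPM after the morpholino. No perturbed library reached a control library, and the morpholino libraries were as low as those of Foxj1 CRISPR. TTC40 fell by 2.94 ± 0.30 (adjusted p = 0.000193), 0.99 ± 0.27 (adjusted p = 0.0278) and 3.18 ± 0.31 (adjusted p = 0.000116) in the Foxj1 CRISPR, Foxn4 CRISPR and morpholino groups.

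TTC18, also called CFAP70, an axonemal protein tied to the outer dynein arm region (scaffold 96766, 1731765 to 1785136), had 724, 456 and 768 CPM in the controls. Its Foxj1 CRISPR libraries had 120 and 169 CPM, the Foxn4 CRISPR libraries 264 and 292 CPM and the morpholino libraries 193 and 345 CPM, all below the lowest control. TTC18 fell by 1.51 ± 0.37 after Foxn4 CRISPR (adjusted p = 0.0173) and fell by 1.72 ± 0.38 after the morpholino (adjusted p = 0.0049). In the Foxj1 CRISPR group the change was −2.60 ± 0.39 (adjusted p = 0.000898).

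TTC29, an axonemal protein known from human sperm flagella (scaffold 190940, 1119252 to 1263033), stood at 152, 103 and 173 CPM in the controls, 12.6 and 24.5 CPM after Foxj1 CRISPR, 38.5 and 65.4 CPM after Foxn4 CRISPR and 22.9 and 26.6 CPM after the morpholino. Again no perturbed library reached a control. The changes were −3.38 ± 0.43 (adjusted p = 0.000417), −1.75 ± 0.39 (adjusted p = 0.012) and −2.98 ± 0.42 (adjusted p = 0.000598). With −1.75, TTC29 showed the largest fall of any tested ciliary member in the Foxn4 CRISPR group.

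LRRC48, or DRC3, a subunit of the nexin-dynein regulatory complex, had 2 models. The copy on scaffold 96766 (554, 335 and 592 CPM in the controls, 224 and 279 CPM after Foxj1 CRISPR, 419 and 479 CPM after Foxn4 CRISPR, 270 and 328 CPM after the morpholino) fell by 1.41 ± 0.32 and 1.18 ± 0.32 in the Foxj1 CRISPR and morpholino groups (adjusted p = 0.0068 and 0.0135), with −0.43 ± 0.31 after Foxn4 CRISPR (adjusted p = 0.337). The copy on scaffold 11405 stood lower, at 147, 115 and 204 CPM in the controls, 54.4 and 56.5 CPM after Foxj1 CRISPR, 81.2 and 79.2 CPM after Foxn4 CRISPR and 64.1 and 139.5 CPM after the morpholino. It was called in all 3 groups at −1.93 ± 0.40, −1.24 ± 0.39 and −1.05 ± 0.39, although 1 morpholino library lay within the control range. The Foxj1 CRISPR call was kept under all 18 alternative settings, but the Foxn4 CRISPR call under 8 and the morpholino call under 7 of them, with −1.80 to −0.57 for the morpholino as single libraries were left out. LRRC23, a radial spoke protein on scaffold 18192, had 307, 194 and 383 CPM in the controls against 158 and 127 CPM after Foxj1 CRISPR, and its changes were −1.49 ± 0.34, −0.50 ± 0.33 and −1.03 ± 0.33, the second of them not called (adjusted p = 0.288).

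Genes of ciliary transport and of tubulin modification formed the third set. TTC30B, an IFT70 protein of intraflagellar transport complex B, had 321, 248 and 421 CPM in the controls and 193 and 178 CPM after Foxj1 CRISPR, a change of −1.27 ± 0.29 (adjusted p = 0.00653). TTC21A, an IFT139-like protein of complex A, had 450, 271 and 472 CPM in the controls, 176 and 263 CPM after Foxj1 CRISPR and 154 and 198 CPM after the morpholino, with changes of −1.30 ± 0.35 (adjusted p = 0.0138) and −1.63 ± 0.35 (adjusted p = 0.00452). Foxn4 CRISPR gave −0.53 ± 0.28 for TTC30B and −0.90 ± 0.34 for TTC21A, neither called.

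LRRC49, a subunit of the tubulin polyglutamylase complex in mice (scaffold 59883, 3236169 to 3291098), stood at 145, 92.0 and 158 CPM in the controls, 39.4 and 36.7 CPM after Foxj1 CRISPR, 101 and 91.5 CPM after Foxn4 CRISPR and 31.1 and 35.4 CPM after the morpholino. The Foxn4 CRISPR libraries overlapped the control, whereas those of the other 2 groups did not. Its changes were −2.23 ± 0.32 (adjusted p = 0.000674), −0.74 ± 0.30 (adjusted p = 0.0937) and −2.44 ± 0.32 (adjusted p = 0.000431). A further LRRC49 model on scaffold 351606 was near 0 in every library and was not tested.

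LRRC34, LRRC43, TTC16 and LRRC45 complete the ciliary list. For LRRC34, LRRC43 and TTC16 no specific ciliary role is given here, so their place in that list is an assignment only. LRRC34 (scaffold 58517, 3728915 to 3743938) had 179, 160 and 268 CPM in the controls, 20.8 and 38.8 CPM after Foxj1 CRISPR, 126 and 136 CPM after Foxn4 CRISPR and 110 and 130 CPM after the morpholino, with changes of −3.20 ± 0.39 (adjusted p = 0.000348), −0.91 ± 0.35 (adjusted p = 0.0812) and −1.21 ± 0.35 (adjusted p = 0.0179). TTC16 went down furthest with the morpholino, from 140, 105 and 132 CPM to 32.9 and 52.2 CPM, a change of −2.0 ± 0.30 (adjusted p = 0.000831), and by −1.37 ± 0.29 in the Foxj1 CRISPR group (adjusted p = 0.00486). LRRC43 changed by −1.49 ± 0.42 in the Foxj1 CRISPR group and −1.34 ± 0.41 after the morpholino. LRRC45, a protein of the linker between centrioles, was the ciliary model not called in the Foxj1 CRISPR group, at −0.91 ± 0.37 (adjusted p = 0.0753), and fell by 1.16 ± 0.38 after the morpholino (adjusted p = 0.0301).

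**Figure D2:**
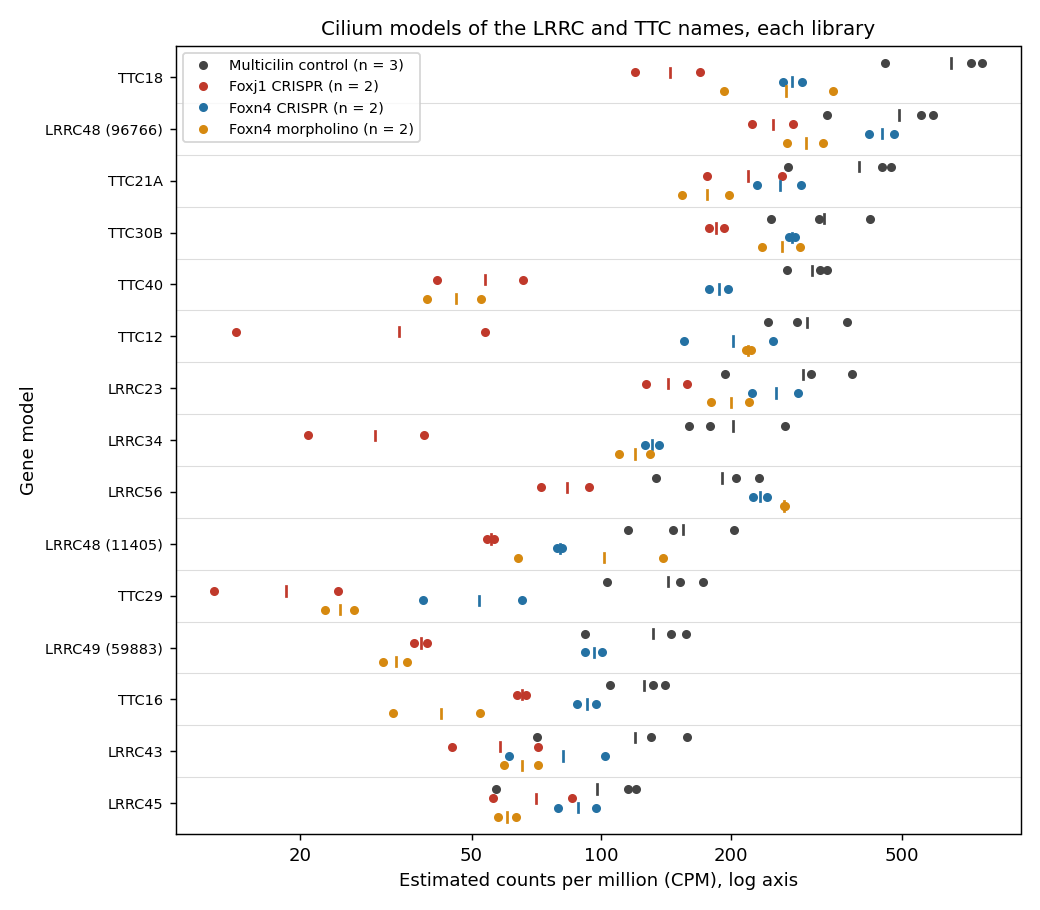
CPM of each tested ciliary model (y axis, models ordered by control mean; scaffold in brackets where a symbol has more than 1 model) in each library on a log x axis, with ticks at group means for the control (n = 3) and the 3 perturbed groups (n = 2 each). TTC12, LRRC34 and LRRC56 have Foxj1 CRISPR points (14.1 and 53.6, 20.8 and 38.8, 72.5 and 93.7 CPM) apart from all the others, whereas for TTC40, TTC29 and LRRC49 the morpholino points lie beside those of Foxj1 CRISPR.

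These ciliary counts depended on single libraries. Without Foxj1 CRISPR replicate 1, which left 1 sample there, fewer ciliary models were called lower in that group. In the Foxn4 CRISPR group the count was smaller without either of its libraries. It was 2 without control replicate 3 and 12 without control replicate 2, beside 1577 of 18957 and 2371 of 18914 of all tested models. With every library it was 4, where 10.7% of all tested models fell. At an unadjusted p under 0.05 in edgeR's test there were 8, beside 7291 of all 19058 tested models. DESeq2 called 6 lower, beside 2756 of all 24383 models. After the morpholino the ciliary count was 13, where 21.1% of all tested models fell, and it was smaller without morpholino replicate 1. It was 8 without control replicate 1 or 3, beside 3582 of 18958 and 3614 of 18957 of all tested models. With library-total scaling it was 6, where 14% of all tested models fell. TTC40, TTC29, TTC18, LRRC49 and TTC16 were called after the morpholino under all 18 alternative settings.

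Per kilobase of model, which allows levels of different genes to be set side by side, the most abundant members in the control were LRRC48 on scaffold 96766 at 198 CPM per kb and TTC18 at 169 CPM per kb. LRRC36 (161), TTC30B (146), LRRC23 (137), LRRC18 (130), TTC24 (127), TTC12 (124) and LRRC34 (121 CPM per kb) came next.

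Among models with no role stated, LRRC18 and TTC24 had the largest falls in the Foxj1 CRISPR group. LRRC18 (scaffold 27067, 2133113 to 2140228) had 174, 116 and 167 CPM in the controls, 0.733 and 10.9 CPM after Foxj1 CRISPR, 63.2 and 93.9 CPM after Foxn4 CRISPR and 14.4 and 27.6 CPM after the morpholino. All perturbed libraries were below the control, and of the Foxj1 CRISPR libraries replicate 1 was far below replicate 2. LRRC18 fell by 5.15 ± 0.88 in the Foxj1 CRISPR group (adjusted p = 0.00166), and its change of −1.24 ± 0.71 after Foxn4 CRISPR was not called (adjusted p = 0.222). Its fall of 3.29 ± 0.79 after the morpholino (adjusted p = 0.00754) was not called without morpholino replicate 1, at −2.87 (adjusted p = 0.0759). The model lies wholly inside the span of WDFY4 on the other strand, and the libraries were not stranded. Of its counts 99.3% were uniquely matching reads, and an overlap of exons was not measured.

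TTC24 (scaffold 26819, 2714151 to 2743191) had 333, 190 and 316 CPM in the controls and 16.1 and 50.7 CPM after Foxj1 CRISPR, but 292 and 307 CPM after Foxn4 CRISPR and 158 and 175 CPM after the morpholino. The Foxj1 CRISPR libraries lay apart from the rest, and the Foxn4 CRISPR libraries lay within the control range. Its fall in the Foxj1 CRISPR group was −3.50 ± 0.51 (adjusted p = 0.000741), beside −0.19 ± 0.44 (adjusted p = 0.78) and −1.21 ± 0.45 (adjusted p = 0.0504) in the Foxn4 CRISPR and morpholino groups.

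LRRC9 (314, 244 and 270 CPM in the controls) showed a similar picture, with 97.1 and 99.8 CPM after Foxj1 CRISPR, 275 and 276 CPM after Foxn4 CRISPR and 239 and 201 CPM after the morpholino. It fell by 1.91 ± 0.24 in the Foxj1 CRISPR group (adjusted p = 0.000383) and by 0.78 ± 0.23 after the morpholino (adjusted p = 0.0182), with −0.28 ± 0.22 after Foxn4 CRISPR. LRRC61 fell from 40.1, 37.0 and 64.6 CPM to 8.71 and 12.2 CPM after Foxj1 CRISPR, a change of −2.61 ± 0.41 (adjusted p = 0.00112). TTC23L fell there from 171, 107 and 195 CPM to 41.1 and 43.5 CPM, a change of −2.34 ± 0.34 (adjusted p = 0.000791), and its last 1021 bp overlap BRIX1 on the other strand. TTC6 fell by 2.30 ± 0.38, LRRC71 by 1.93 ± 0.33 and LRRC27 by 1.62 ± 0.29 in the Foxj1 CRISPR group, while both LRRC73 copies changed by −1.78 ± 0.49 and −1.92 ± 0.51.

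LRRC31 was the model with no role stated that fell in all 3 groups. It had 6.56, 16.4 and 8.06 CPM in the controls, 1.79 and 2.22 CPM after Foxj1 CRISPR, 3.27 and 3.47 CPM after Foxn4 CRISPR and 2.75 and 2.27 CPM after the morpholino, and no perturbed library reached a control. Its changes were −2.74 ± 0.43 (adjusted p = 0.00106), −1.85 ± 0.41 (adjusted p = 0.0109) and −2.44 ± 0.42 (adjusted p = 0.00153). LRRC31 lies 9295 bp from LRRC34 on the same strand of scaffold 58517, and it overlaps LRRIQ4 by 1099 bp.

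LRRC36 stood apart from the other abundant models. It was the most abundant model with no role stated per kb, had 677, 306 and 646 CPM in the controls, and stood at 649 and 680 CPM after Foxj1 CRISPR, 522 and 562 CPM after Foxn4 CRISPR and 578 and 424 CPM after the morpholino. The perturbed libraries lay within or at the edge of the control range. Its changes of −0.15 ± 0.35, −0.30 ± 0.35 and −0.59 ± 0.36 were not called (adjusted p = 0.751, 0.566 and 0.195), and the sign of the Foxj1 CRISPR value turned to 0.29 with library-total scaling. LRRC28 and TTC34 on scaffold 208071 were also not called in the Foxj1 CRISPR group, at 0.02 ± 0.52 and −0.87 ± 0.35.

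**Figure D3:**
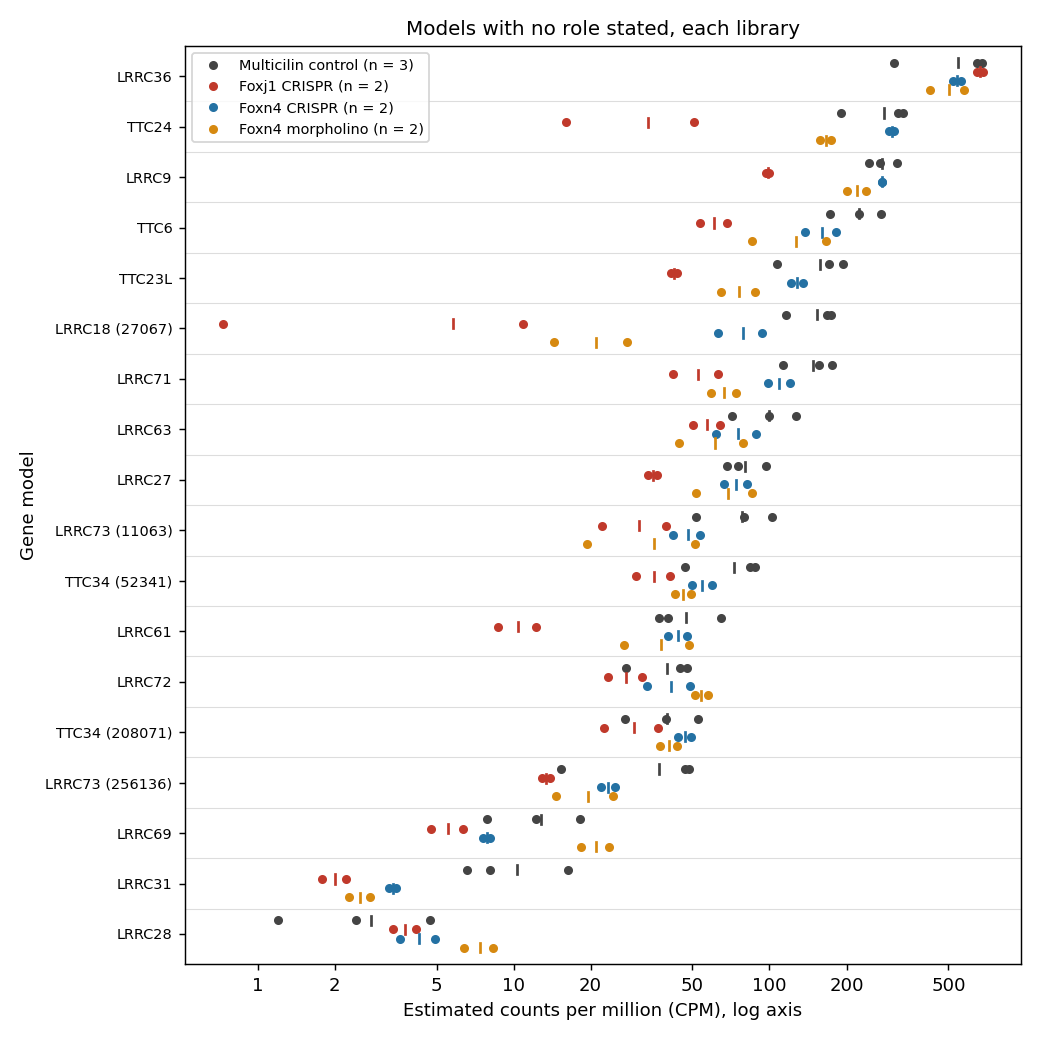
CPM of each tested model with no role stated (y axis, ordered by control mean) in each library on a log x axis, with ticks at group means for the control (n = 3) and the 3 perturbed groups (n = 2 each). LRRC36, at the top, holds 649 and 680 CPM after Foxj1 CRISPR against 306 to 677 CPM in the control. By contrast, TTC24, LRRC18 and LRRC61 have Foxj1 CRISPR points (16.1 and 50.7, 0.733 and 10.9, 8.71 and 12.2 CPM) below all their control points.

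Without Foxj1 CRISPR replicate 1, fewer than 15 models with no role stated were called lower in that group. Without control replicate 2, 7 were called lower after Foxn4 CRISPR, beside 2371 of all 18914 tested models, against 1 with every library. For the morpholino, fewer than 10 were called lower without its replicate 1. Without control replicate 1 it gave 5, beside 3582 of all 18958 tested models. Without control replicate 3 it gave 6 (with 1 higher), beside 3614 of all 18957. Library-total scaling gave 4 lower and 1 higher, where 14% of all tested models fell and 35.9% rose.

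The Foxj1 CRISPR and Foxn4 CRISPR groups came from the same study, so their direct comparison is free of the re-used control, although the controls still informed the estimate of spread. There 9 members were lower in the Foxj1 CRISPR group and 1 was higher, where 1.43% of all tested models were lower and 0.021% higher, and the median member difference was −0.32 against 0.00. The lower members were 4 ciliary models, 4 with no role stated and TTC5 on scaffold 272406. Every one of the 15 ciliary models and 17 of the 18 models with no role stated had a value below 0.

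TTC24 differed most among the called members, at −3.32 ± 0.52 (adjusted p = 0.0177), from 292 and 307 CPM after Foxn4 CRISPR to 16.1 and 50.7 CPM after Foxj1 CRISPR. TTC12 differed by −2.73 ± 0.55 (adjusted p = 0.0393), LRRC34 by −2.29 ± 0.39 (adjusted p = 0.0224) and LRRC61 by −2.22 ± 0.43 (adjusted p = 0.0339). TTC5 on scaffold 272406 was next at −2.20 ± 0.34 (adjusted p = 0.0169). TTC40 followed at −1.96 ± 0.30 (adjusted p = 0.0169), TTC23L at −1.75 ± 0.35 (adjusted p = 0.0419), LRRC56 at −1.64 ± 0.33 (adjusted p = 0.0396) and LRRC9 at −1.64 ± 0.25 (adjusted p = 0.0168). In each of these the Foxj1 CRISPR libraries lay below both Foxn4 CRISPR libraries. TTC21A (−0.40 ± 0.36), LRRC45 (−0.47 ± 0.40) and LRRC43 (−0.64 ± 0.44) were the ciliary models with the smallest differences, and they overlapped between the groups.

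LRRC47 was the single member higher in the Foxj1 CRISPR group, with 33.2 and 20.5 CPM against 7.99 and 7.50 CPM after Foxn4 CRISPR, a difference of 1.64 ± 0.31 (adjusted p = 0.0324). Leaving out Foxj1 CRISPR replicate 1, or 1 of the Foxn4 CRISPR libraries, ended all 10 of these calls. A group then holds a lone sample that is assumed to vary like the others. With all libraries 26 members had an unadjusted p under 0.05 in edgeR's test, beside 2165 of all 19058 tested models. DESeq2 called 17 members, beside 702 lower and 36 higher of all 24383 models. Without control replicate 2, 16 members were lower and 1 was higher, beside 589 and 25 of all 18914 tested models. Without control replicate 1, 5 were lower and 1 higher, beside 223 and 6 of all 18958. Fewer were called without morpholino replicate 2.

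**Figure D4:**
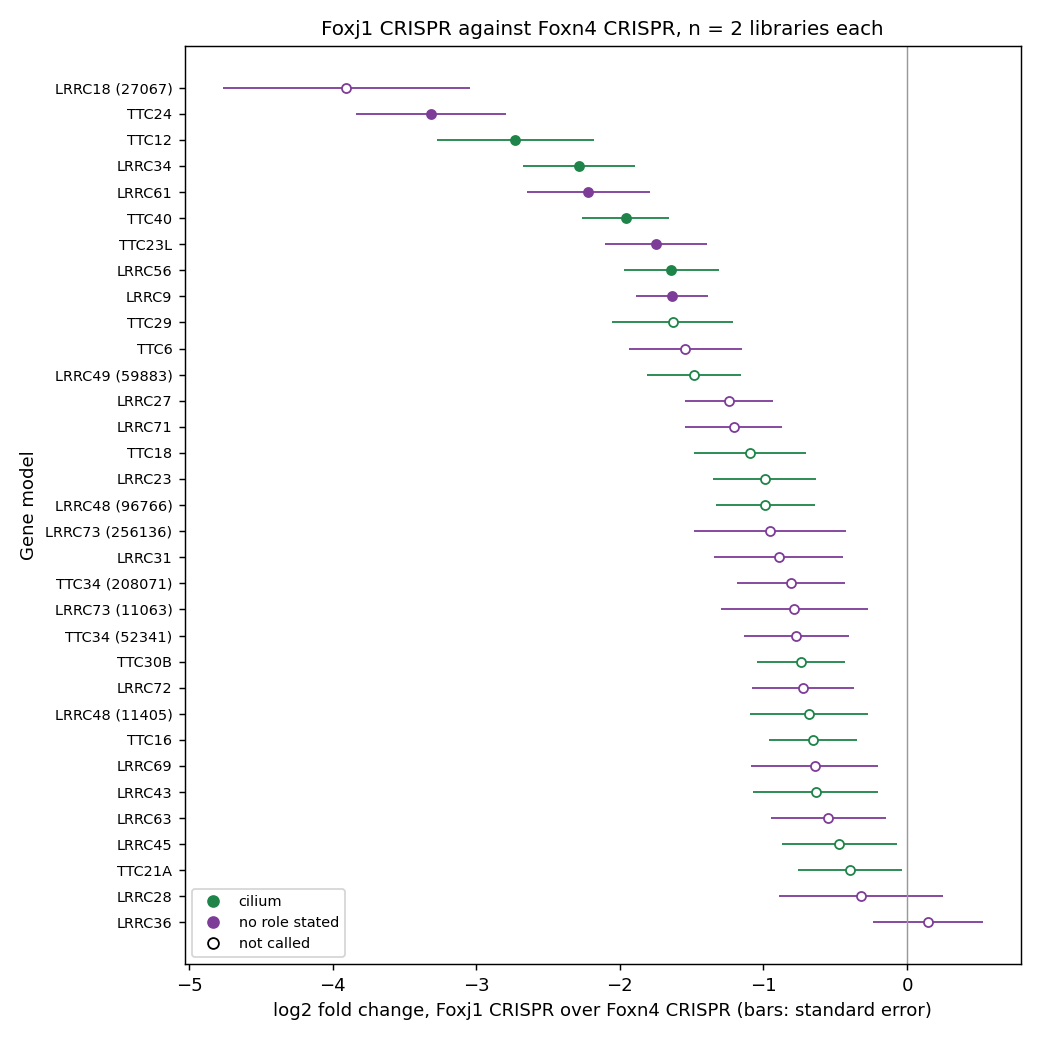
Log2 difference between the Foxj1 CRISPR and Foxn4 CRISPR groups (x axis, n = 2 libraries each, bars are standard errors) for the tested ciliary models and those with no role stated (y axis, ordered by value), with called models filled. Of these models, LRRC36 alone lies above 0, and 8 called models run from −1.64 for LRRC9 to −3.32 for TTC24.

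The Foxn4 morpholino and Foxn4 CRISPR groups, which were aimed at the same gene in the same study, differed in 4 members that were lower with the morpholino and 3 that were higher, where 2.82% of all tested models were lower and 2.65% higher. Medians were −0.27 for members and 0.04 for all models. TTC40 was lower with the morpholino by 2.19 ± 0.31 on the log2 scale (adjusted p = 0.0047), at 39.5 and 52.6 CPM against 178 and 198 CPM, and this call was kept under all 18 alternative settings. LRRC49 differed by −1.70 ± 0.33 (adjusted p = 0.0188) and TTC16 by −1.28 ± 0.31 (adjusted p = 0.0425). TTC22, whose model contains PARS2 on the other strand, differed by −1.53 ± 0.36 (adjusted p = 0.0381), from 60.9 and 70.2 CPM to 18.8 and 31.5 CPM.

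The 3 of 100 tested members that were higher with the morpholino, near the 2.65% of all tested models, encode membrane or secreted proteins. LRRC17, a secreted protein, had 21.4 and 20.8 CPM with the morpholino, 2.77 and 1.68 CPM after Foxn4 CRISPR and 3.47, 2.40 and 3.80 CPM in the controls (scaffold 12518), and it was higher by 3.08 ± 0.44 (adjusted p = 0.00577). LRRC19, a membrane receptor, was higher by 2.26 ± 0.54 on scaffold 68934 (adjusted p = 0.0389), a call kept under 9 of 18 alternative settings. Both LRRC19 models, on scaffolds 68934 and 185879, lie wholly inside the span of IFT74 on the other strand. Of their counts 46.7% and 68.8% were uniquely matching reads, and an overlap of exons with IFT74 was not measured. LRRC32, also called GARP, which docks latent TGF-beta on the cell surface, was higher by 2.06 ± 0.51 on scaffold 36991 (adjusted p = 0.0439), at no more than 3.18 CPM and with 9.43% uniquely matching reads. Its more abundant copy on scaffold 405216 differed by −0.58 and was not called. Fewer members differed in either direction without morpholino replicate 1 or either Foxn4 CRISPR library, each of which left 1 sample in a group. The higher count was also smaller without either Foxj1 CRISPR library or morpholino replicate 2. It was 1 without control replicate 3. Without control replicate 2 it was 5, beside 785 of all 18914 tested models.

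Among membrane proteins the LRRC8 family forms the volume-regulated anion channel, in which LRRC8A is the obligatory subunit. LRRC8A (scaffold 229341) had 5.83, 12.8 and 4.90 CPM in the controls, 29.7 and 19.6 CPM after Foxj1 CRISPR, 16.7 and 11.5 CPM after Foxn4 CRISPR and 36.4 and 30.1 CPM after the morpholino. It rose by 1.27 ± 0.37 (adjusted p = 0.0209) in the Foxj1 CRISPR group and by 1.68 ± 0.37 (adjusted p = 0.00519) with the morpholino, and a change of 0.61 ± 0.38 after Foxn4 CRISPR was not called. LRRC8E, at 15.8 CPM per kb in the control the most abundant of the family, stood at 32.1, 78.0 and 64.8 CPM in the controls and rose in the Foxj1 CRISPR group to 224 and 135 CPM, by 1.22 ± 0.38 (adjusted p = 0.0267).

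LRRC8C on scaffold 380348 rose from 0.426, 0.540 and 0.582 CPM to 11.6 and 13.9, 3.49 and 6.77, and 4.35 and 5.22 CPM in the Foxj1 CRISPR, Foxn4 CRISPR and morpholino groups. Its changes were 4.21 ± 0.40, 3.06 ± 0.40 and 2.78 ± 0.40 (adjusted p = 0.00015, 0.000999 and 0.000648). A second LRRC8C copy on scaffold 47606 (2532027 to 2548076) went from at most 0.333 CPM in the controls to 2.80 to 6.52 CPM in the perturbed libraries and was called higher in all 3 groups. LRRC8B beside it on scaffold 47606 was also called higher in all 3 groups, at 2.29 ± 0.34, 2.48 ± 0.35 and 2.99 ± 0.35, but only 10.1% of its counts were uniquely matching reads, and with those reads alone the Foxj1 CRISPR and Foxn4 CRISPR values were −0.18 and −0.36. Of the counts of the LRRC8C copies above, 39.0% (scaffold 380348) and 34.9% (scaffold 47606) were uniquely matching reads. Their Foxj1 CRISPR and Foxn4 CRISPR calls were kept under all 18 alternative settings. A further LRRC8C model on scaffold 47606 (1160351 to 1168769) stood at no more than 0.744 CPM and was not tested. These rises are all against the re-used control, so study and treatment cannot be told apart in them. No tested LRRC8C or LRRC8B model was called between the CRISPR groups, where 1.43% of all tested models were lower and 0.021% higher. None was called between the Foxn4 groups, where 2.82% were lower and 2.65% higher. LRRC8D on scaffold 175133 fell by 1.28 ± 0.42 in the Foxj1 CRISPR group (adjusted p = 0.0324).

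LRRC19 rose with the morpholino in both copies, by 1.99 ± 0.45 and 2.26 ± 0.42 (adjusted p = 0.00579 and 0.00228), and LRRC17 rose by 2.25 ± 0.36 (adjusted p = 0.00108). LRRC32 on scaffold 405216, the abundant copy at 86.5, 65.7 and 91.3 CPM in the controls, fell by 1.48 ± 0.31 in the Foxj1 CRISPR group and by 1.45 ± 0.31 with the morpholino. LRRC59, a protein of the endoplasmic reticulum membrane with the highest control level per kb of this list, had 135, 183 and 124 CPM there and changed by −0.19 ± 0.22 and −0.31 ± 0.22 in the CRISPR groups, neither called, and by −0.67 ± 0.23 with the morpholino (adjusted p = 0.0334). LRRC70 was called higher in all 3 groups but stood at no more than 0.156 CPM in the controls with 7.69% uniquely matching reads. Fewer than 2 lower calls of this list were made in the Foxj1 CRISPR group without either of its libraries. For Foxn4 CRISPR fewer than 5 higher calls were made without its replicate 1, and for the morpholino fewer than 4 lower calls without its replicate 1. Without control replicate 3 the morpholino gave 2 lower calls, beside 3614 of all 18957 tested models, against 4 with every library. The secretory, neural and other marker sums given above moved between the same groups, and their part in these values was not tested.

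Among members with other cellular roles, TTC37, a subunit of the SKI complex that feeds RNA to the exosome, fell in all 3 groups, by 2.11 ± 0.32, 1.57 ± 0.32 and 2.0 ± 0.32 (adjusted p = 0.000951, 0.00735 and 0.00109). It stood at 12.9, 13.3 and 9.48 CPM in the controls and between 3.29 and 5.69 CPM in the perturbed libraries. TTC31 on scaffold 243569 also fell in all 3 groups, by 1.02 ± 0.25, 1.01 ± 0.25 and 1.59 ± 0.26. LRRC1, or Lano, a scaffold protein of cell junctions, rose in all 3 groups at scaffold 37227, by 1.09 ± 0.21, 1.05 ± 0.21 and 0.70 ± 0.21, from 50.3, 57.5 and 49.7 CPM to 97.8 to 157 CPM. Its more abundant copy on scaffold 52702 had 179, 138 and 171 CPM in the controls. That copy rose by 0.66 and 0.80 in the Foxj1 CRISPR and Foxn4 CRISPR groups but was not called with the morpholino, at 0.20. With copies summed the morpholino change was 0.37 and was not called. LRRC47 rose by 2.28 ± 0.27 in the Foxj1 CRISPR group (adjusted p = 0.000329) and by 1.71 ± 0.27 with the morpholino (adjusted p = 0.00108), from 4.01, 4.49 and 3.90 CPM. Without Foxj1 CRISPR replicate 1 fewer models of this list were called in each direction in that group. The same held for Foxn4 CRISPR without either of its libraries and for the morpholino without its replicate 1.

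Copies of a gene were not always called alike. No test compared copies, and a call in 1 copy but not in another does not show that they differ. The same counts were not made for duplicated genes outside the members. Xenopus laevis carries duplicated genes, and 32 of the 83 symbols had at least 2 models, 71 models in all. For 24 symbols at least 2 models were tested, and in the Foxj1 CRISPR group all tested models were called the same way for 6 symbols, some but not all were called for 9, and 1 symbol had opposite calls. The median spread between copies was 0.88 on the log2 scale. Reads that match several copies were shared out by the authors' counting, so differences between similar copies are uncertain, and 24 tested members had under 50% uniquely matching reads.

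TTC5, a cofactor of transcription that also takes part in the feedback on tubulin mRNA, gave the largest fall in the Foxj1 CRISPR group among models with other roles. The copy on scaffold 272406 had 37.4, 28.4 and 28.9 CPM in the controls, 1.81 and 2.88 CPM after Foxj1 CRISPR, 9.54 and 9.84 CPM after Foxn4 CRISPR and 12 and 11 CPM after the morpholino, and no perturbed library reached a control. It fell by 4.17 ± 0.34 (adjusted p = 9.33e-05), 1.97 ± 0.30 (adjusted p = 0.00188) and 1.91 ± 0.30 (adjusted p = 0.000931). The copy on scaffold 111469 changed by −0.70 ± 0.38, −0.57 ± 0.38 and −0.82 ± 0.38, none called.

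TTC7A, a scaffold of the phosphatidylinositol 4-kinase complex, differed between copies in the other direction. The copy on scaffold 27036 had 0.371, 0.546 and 0.479 CPM in the controls and 5.40 to 8.16 CPM in the perturbed libraries, rises of 3.19 ± 0.34, 3.78 ± 0.34 and 3.44 ± 0.34, but only 17.2% of its counts were uniquely matching. In these rises study and treatment cannot be told apart, and neither TTC7A copy was called between the CRISPR groups or between the Foxn4 groups. The copy on scaffold 102974 was not called in any group with estimated counts, but its call turned with the way reads were counted. With uniquely matching reads it was called lower in the Foxj1 CRISPR and Foxn4 CRISPR groups, at −1.10 and −1.51 (adjusted p = 0.0486 and 0.0307). With all matching reads it was called higher with the morpholino, at 2.71 (adjusted p = 1.02e-05). TTC7B, its paralog in the same complex, fell in both copies in the Foxj1 CRISPR group, by 2.0 ± 0.41 and 1.09 ± 0.26. TTC9 had opposite calls in the Foxj1 CRISPR group, at 1.61 ± 0.48 on scaffold 2589 and −1.88 ± 0.53 on scaffold 98382, and its models summed gave −0.16. TTC39A had opposite calls with the morpholino, at −1.84 ± 0.46 on scaffold 49557 and 2.86 ± 0.47 on scaffold 69443, the latter at no more than 4.46 CPM.

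Foxn4 binding was described from the authors' peak lists, with 1 library per condition and therefore no test. A peak counted as near a model when its centre lay within 1000 bp of the model's start. With Foxn4 alone 70 of the 122 members (57.4%) had such a peak, against 53.3% of all models, and with Foxn4 and Multicilin 54 (44.3%) had it, against 31.4%. Peaks in both lists were near 53 members (43.4%), against 30.3% of all models, 37.6% of tested models and 57.8% of models with at least 50 CPM in the control. By role, 15 of 16 ciliary models, 11 of 20 with no role stated, 23 of 51 with other roles and 4 of 35 membrane or secreted models had a peak in both lists. The ciliary model without any was the near-silent LRRC49 copy.

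Peaks in both lists were close to the start and tall at the ciliary models, and also at those with no role stated. At the ciliary models their centres lay a median of 58 bp from the start with Foxn4 alone and 47 bp with Multicilin. There 14 of 15 were within 150 bp in each list, while at TTC40 the distances were 752 and 784 bp. The median height at the ciliary models was 105.6 normalized tags with Foxn4 alone and 93.7 with Multicilin, at median percentiles of 89.5 and 93.6 of each list. The 11 models with no role stated had median distances of 10 and 34 bp, all within 150 bp. Their median percentiles were 86.0 and 83.2. Heights near the starts of models outside the members were not compared. TTC21A (469.7 tags), LRRC43 (333) and LRRC23 (242.3) had the tallest ciliary peaks with Foxn4 alone. TTC12 had 96.1 and 97.7 tags in the 2 lists, LRRC34 88.0 and 97.7, and LRRC56 67.7 and 57.0. The TTC21A start overlaps the start of GORASP1 on the other strand by 13 bp. LRRC34 starts at 3743938 and LRRIQ4, on the other strand, at 3744070. Peaks at these 2 starts cannot be given to the member alone.

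LRRC36 had the tallest peak of all members, 10 bp before its start, with 514.3 tags with Foxn4 alone and 403.1 with Multicilin, at percentiles of 99.8 and 99.9. Its RNA was not called in any comparison. LRRC73 on scaffold 11063 had 393.9 and 219.9 tags, below TTC21A with Foxn4 alone and above it with Multicilin, and LRRC27 had 226 and 160.8 tags at its start. Membrane or secreted models with peaks in both lists were LRRC8C on scaffold 380348, LRRC59, LRRC3B on scaffold 251121 and LRRC8E. TTC22 was the one member with a peak near the start with Multicilin and not with Foxn4 alone, where the nearest peak lay at −2866 bp from the start.

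**Figure D5:**
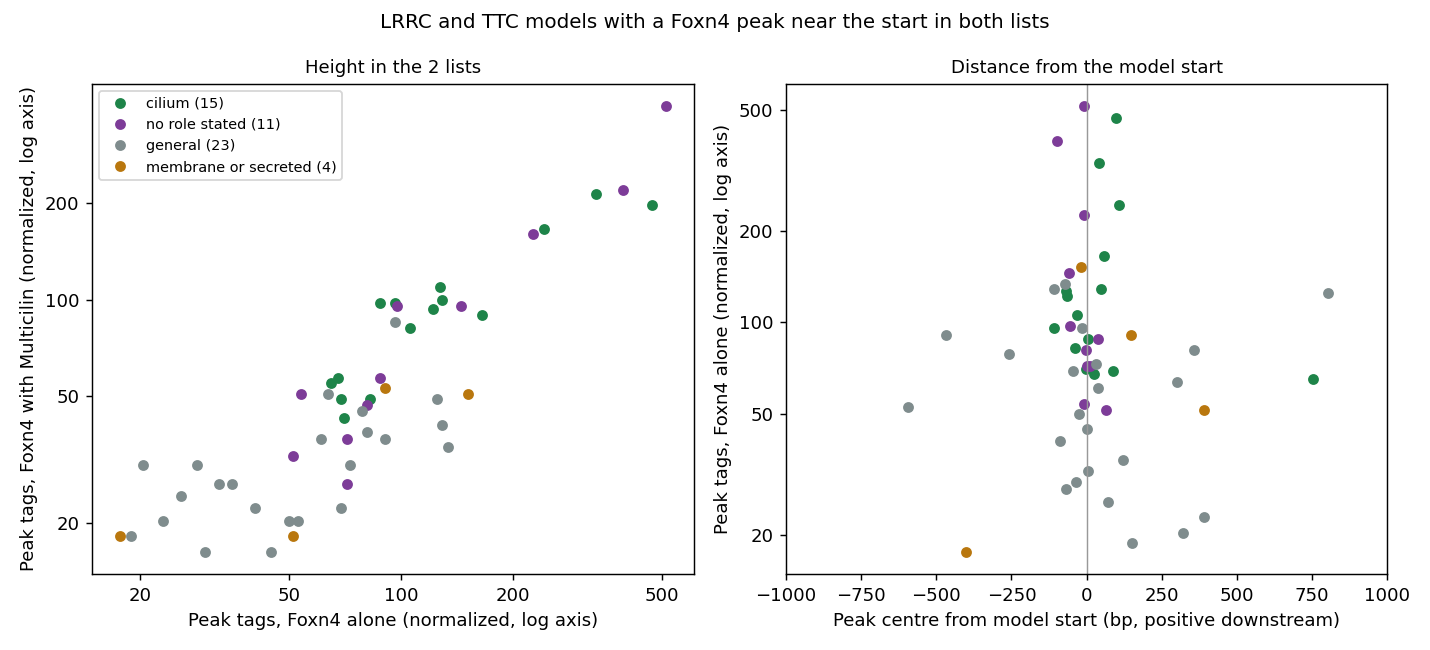
Members with a Foxn4 peak within 1000 bp of the model start in both lists, coloured by role list, with peak height in normalized tags with Multicilin against Foxn4 alone on log axes (left) and height with Foxn4 alone against distance of the peak centre from the start in bp (right). Ciliary models lie at 65 to 469.7 tags with Foxn4 alone and mostly within 150 bp of the start, and LRRC36 is the highest point at 514.3 tags.

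Among the 51 tested members with a peak in both lists, 30 fell and 6 rose in the Foxj1 CRISPR group (median −1.30), against 11 and 7 of the 49 without (median 0.02). With Foxn4 CRISPR the counts were 9 lower and 3 higher (median −0.59) against 4 and 7 (median −0.21), and with the morpholino 30 and 3 (median −1.03) against 10 and 14 (median 0.06). Of all tested models with a peak in both lists, 23.9% fell and 18% rose in the Foxj1 CRISPR group, 10.8% and 9.04% with Foxn4 CRISPR and 25.1% and 20.3% with the morpholino. Of those without, 18.8% fell and 20.8% rose, 10.6% and 14.7%, and 18.7% and 26.1%, in the same order. Medians over all models were −0.11, −0.11 and −0.09 with a peak and 0.09, 0.03 and 0.20 without. All 9 members that were lower in the Foxj1 CRISPR than in the Foxn4 CRISPR group had a peak in both lists. So had 178 of the 272 models of any name that were lower there. Of all tested models, 2.48% of those with a peak and 0.791% of those without were lower. Most ciliary members are among those with peaks, so binding and role list cannot be told apart in these counts.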

How the data were processed

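The members and the gene lists were chosen with earlier results of these data known. The deposited RNA files carry eXpress column headers, and the authors' values in them are an estimated count per gene model, a count of uniquely matching reads and a count of all matching reads. The gene models are the Mayball set, which the series' design text names as the target of read matching, and the submitters' processing notes name STAR, eXpress, DESeq, Bowtie2 and HOMER without versions. Per the labels' protocols, poly-A libraries were not stranded. The authors' deposited comparison tables hold signal columns of mean normalized counts, fold ratios, log2 values of these and p-values, and a check against the counts showed that their log2 values run as control over perturbed. HOMER, per the file headers, was run by the authors on single ChIP libraries in the transcription factor setting, at a false discovery rate of 0.001, 4-fold over input and 4-fold over the surrounding 10000 bp, which gave 65258 peaks with Foxn4 alone and 29673 with Multicilin. Both lists used the same input. The deposited peak files hold normalized tags as signal, a score, fold ratios and p-values, on X. laevis version 7.1 scaffolds, and all are the authors' values. The 6 input libraries were not analysed here.

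Estimated counts, rounded to whole numbers, were fitted for all 9 RNA libraries together with edgeR 4.0.16 (quasi-likelihood test, TMM scaling, filterByExpr, group as the only term, R 4.3.3), with Benjamini-Hochberg adjustment over 19058 models. The fit had 5 residual degrees of freedom and a common biological coefficient of variation of 0.31. CPM is the estimated count over a library's total, scaled to 1000000, and rows with no gene symbol, 1.70% to 2.43% of counts, were kept as models because they carry scaffold positions. The code was tested on simulated counts. Alternatives were DESeq2 1.42.0, other scalings, no filter, other read counts, summed copies, a replicate block, the groups compared alone in the fit and each library left out. For peaks they were other distances and a higher fold. Library-total scaling was added after seeing the data. Named are the tested ciliary models, the 8 called members with the largest change in each direction per comparison among those with at least 5 CPM in a group, members with peaks in both lists, and copies of those. No pair of replicates agreed within sampling noise, so none was merged.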

Additional observations from a re-analysis of the deposited data

How the results depend on the processing

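Of 142 named values, 141 kept direction and side of the threshold without the low-count filter, 139 with RLE scaling, 135 with DESeq2 and 130 with only the 2 groups compared in the fit. The number was 125 with uniquely matching reads, 122 with summed copies, 120 with all matching reads and 119 with library-total scaling. With the replicate block it was 111, with 29 calls lost and 2 signs turned. Leaving out each library gave the following ranges of member counts. Where a group was left with 1 sample, that sample was assumed to vary like the others. Counts over all tested models also moved with the library left out. For Foxn4 CRISPR 1577 models were lower without control replicate 3 and 2371 without control replicate 2, against 2031 with every library. Against the control, Foxj1 CRISPR gave 29 to 59 called, 21 to 44 lower and 8 to 15 higher. Foxn4 CRISPR gave 8 to 40 called, 3 to 29 lower and 5 to 11 higher. The morpholino gave 31 to 63 called, 17 to 44 lower and 14 to 19 higher. Foxj1 CRISPR against Foxn4 CRISPR gave 0 to 17 called, 0 to 16 lower and 0 to 1 higher, and the morpholino against Foxn4 CRISPR gave 1 to 11 called, 1 to 6 lower and 0 to 5 higher.

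With all matching reads, 25 of 108 tested members were higher after Foxj1 CRISPR, beside 5167 of all 20385 tested models. After Foxn4 CRISPR 46 members were called (23 lower, 23 higher), beside 3104 lower and 3940 higher of all models. The morpholino gave 30 higher members, beside 6185 of all models. Between the Foxn4 groups 25 members differed (14 lower, 11 higher), beside 1489 lower and 2062 higher of all models. Uniquely matching reads and summed copies each gave 6 higher after Foxn4 CRISPR, and summed copies gave 1 higher with the morpholino than with Foxn4 CRISPR. With uniquely matching reads 1872 of all 17779 tested models were higher after Foxn4 CRISPR, where 93 members were tested. Library-total scaling gave 7 lower after Foxn4 CRISPR, where 6.63% of all tested models fell. With the morpholino it gave 20 lower and 27 higher, where 14% and 35.9% of all tested models were. DESeq2 called 17 members between the CRISPR groups (15 lower, 2 higher), beside 702 lower and 36 higher of all 24383 models. Between the Foxn4 groups it called 11 members (5 higher), beside 1272 lower and 863 higher of all models. With only the 2 CRISPR groups in the fit, 14 of 96 tested members were lower, beside 637 of all 17825 tested models. The counts of members near Foxn4 peaks stayed within 1.5 times under all 4 peak alternatives.

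Replicate numbers did not pair the samples by the labels, and deviations of same-numbered libraries correlated at 0.68 for the CRISPR groups, 0.27 and 0.14 for each with the morpholino and −0.23 to −0.06 with the control. With the replicate block, 0 members were called between the CRISPR groups (0 lower, 0 higher), and so were 0 of all 19058 tested models. Of 100 tested members 25 fell with the morpholino against the control, beside 3526 of all tested models. A single member (1) was higher with the morpholino than with Foxn4 CRISPR, beside 349 of all tested models.

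Signs turned as follows. With library-total scaling, LRRC36 gave 0.29 (Foxj1 CRISPR), LRRC72 0.047 (Foxn4 CRISPR) and 0.44 (morpholino), LRRC8B on scaffold 181903 0.055 and TTC24 0.10 (both Foxn4 CRISPR), TTC5 on scaffold 111469 0.012 (between CRISPR groups) and TTC7A on scaffold 102974 0.10 (morpholino). With the replicate block, LRRC36 gave 0.11 (Foxj1 CRISPR) and LRRC72 0.16 (morpholino). With uniquely matching reads, LRRC72 gave 0.12 (morpholino), LRRC8B 0.065 on scaffold 181903 (Foxn4 CRISPR), LRRC8B −0.18 and −0.36 on scaffold 47606 (Foxj1 and Foxn4 CRISPR) and TTC7A on scaffold 102974 −1.10 and −1.51 (same groups, both called lower). With summed copies, LRRC72 gave 0.0082 (morpholino), LRRC8B 2.07 (Foxn4 CRISPR), TTC7A 1.20 (morpholino) and TTC9 −0.16, −1.05 and −0.70 (Foxj1 CRISPR, Foxn4 CRISPR, morpholino). With all matching reads, this TTC7A copy gave 2.71 (morpholino, called higher). LRRC56, near 0 in both Foxn4 groups, gave −0.041 and −0.056 with RLE scaling, −0.042 and −0.061 with DESeq2, −0.13 and −0.37 with all matching reads and, for the morpholino with 2 groups in the fit, −0.059. With single libraries left out, LRRC36 ranged from −0.46 to 0.059 (Foxj1 CRISPR), LRRC56 from −0.23 to 0.23 (Foxn4 CRISPR and morpholino alike), LRRC72 from −0.55 to 0.015 and from −0.29 to 0.16, and LRRC8B on scaffold 181903 from −0.75 to 0.14 (Foxn4 CRISPR). The cause was not tested. Models below about 1 CPM and those with few uniquely matching reads set the limit of what these libraries can show.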

Other observations

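The 22 members that were not tested comprised 15 membrane or secreted models, 4 with other roles, 2 with no role stated and the second LRRC49 model. No count at all was found for LRRC30, for LRRC18 on scaffold 57114, for both LRRC3 models, for both LRRC4C models or for LRRC3B on scaffolds 13265 and 75417. LRRC3B on scaffold 48114, detected at 1.04, 1.87 and 3.02 CPM in the controls, fell by 4.46 ± 1.08 after Foxn4 CRISPR (adjusted p = 0.0161), where its libraries had 0.242 and 0 CPM, and by 2.69 ± 0.84 with the morpholino (adjusted p = 0.0249), with 1.83 and 2.04 CPM after Foxj1 CRISPR.

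LRRC16A, also called CARMIL1, a regulator of actin filament capping, had 2 models that were called in different comparisons. The model on scaffold 73623 fell by 1.26 ± 0.32 after Foxj1 CRISPR (adjusted p = 0.011) and by 1.15 ± 0.32 after Foxn4 CRISPR (adjusted p = 0.0282), from 11.6, 18.0 and 8.58 CPM, while the model on scaffold 206980 rose by 2.47 ± 0.55 with the morpholino (adjusted p = 0.00534), from at most 0.734 CPM to 5.91 and 2.58 CPM. Neither model was called against the control where the other was. Only 35.9% and 28.9% of their counts were uniquely matching reads. TTC13 fell after Foxj1 CRISPR in both models, with changes of −2.69 ± 0.50 and −3.39 ± 0.88 (adjusted p = 0.00244 and 0.012). Both TTC13 models overlap the span of ARV1 on the other strand over 48821 and 22474 bp, and an overlap of exons was not measured. Only 13.7% and 23.3% of their counts were uniquely matching reads, so how far their reads stand apart from other models is uncertain.

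The authors' deposited table for Foxj1 CRISPR called 32 members lower and 5 higher of 116 listed, where 7.09% of all its rows were lower and 6.64% higher. The mean columns of the authors' deposited tables fit 2 perturbed libraries with 5 control libraries for Foxj1 CRISPR and with 3 for each Foxn4 group. In the authors' deposited table for the morpholino 14 members were lower and 9 higher of 112, near the 10.2% and 7.27% of all its rows. In the authors' deposited table for Foxn4 CRISPR 5 were lower and 5 higher of 112, against 3.58% and 5.15% of all its rows. Of the ciliary models, 12 of 16, 5 of 16 and 1 of 15 were lower in the authors' deposited tables, in the same order.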
